A study of Sus scrofa with 6 samples.

Results

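PA_3 is an embryonic stem cell line from a parthenogenetic pig (Sus scrofa) embryo, which develops from an egg activated without sperm, and IVF_1 is a line from an embryo fertilised in vitro. The comparison of PA_3 with IVF_1 used 4 of the 6 libraries of the study, 2 from each line, and the PA_1 line, which is also parthenogenetic, gave the other 2. The labels give all 3 lines the genotype WT, the cell type embryonic stem cells and the serum-free medium FIW, with no treatment named, and do not say whether the cells grew on feeder cells. Poly(A) RNA was sequenced, and 15197 of the 31908 genes in the deposited table had enough counts to be tested. Library totals were 24300183 and 26803977 counts in PA_3, 16608237 and 15248306 in IVF_1 and 28575817 and 18208997 in PA_1. The comparison sets 1 line against 1 line, so an effect of the embryo's origin and a difference between individual lines cannot be told apart. Whether a line's libraries were grown as separate cultures is not stated, and the p-values may therefore reflect technical spread alone.

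Pluripotent stem cells from the epiblast of the embryo grow as tight epithelial colonies joined by E-cadherin and tight junctions, and they divide quickly, which needs a high output of ribosomes and of protein. A parthenogenetic embryo has no paternal genome, so the genes that are normally read only from the paternal chromosome are not expressed from it. Such imprinted genes, and the genes of glycolysis, are set aside here, and the results describe the other genes.

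Across the 15197 genes tested, 7920 were called different between PA_3 and IVF_1 (52.1%). Of these, 3937 were higher in PA_3 (25.9% of genes tested) and 3983 were lower (26.2%). A gene is called here when its Benjamini-Hochberg adjusted p from edgeR's quasi-likelihood test is below 0.05, with no minimum fold. Changes of at least 2-fold were fewer, with 1171 genes higher (7.71%) and 820 lower (5.4%). The 2 libraries of a line were close to each other (Pearson r of log2(CPM + 1) across genes, which are not independent replicates, of 0.9973 in PA_3 and 0.9968 in IVF_1), and between the lines r was 0.9653 to 0.9656. CPM are read counts scaled to a library size of 1e+06 after TMM normalisation. The same fit called 5595 genes (36.8%) in PA_3 against PA_1, a comparison that shares the PA_3 libraries.

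**Figure D1:**
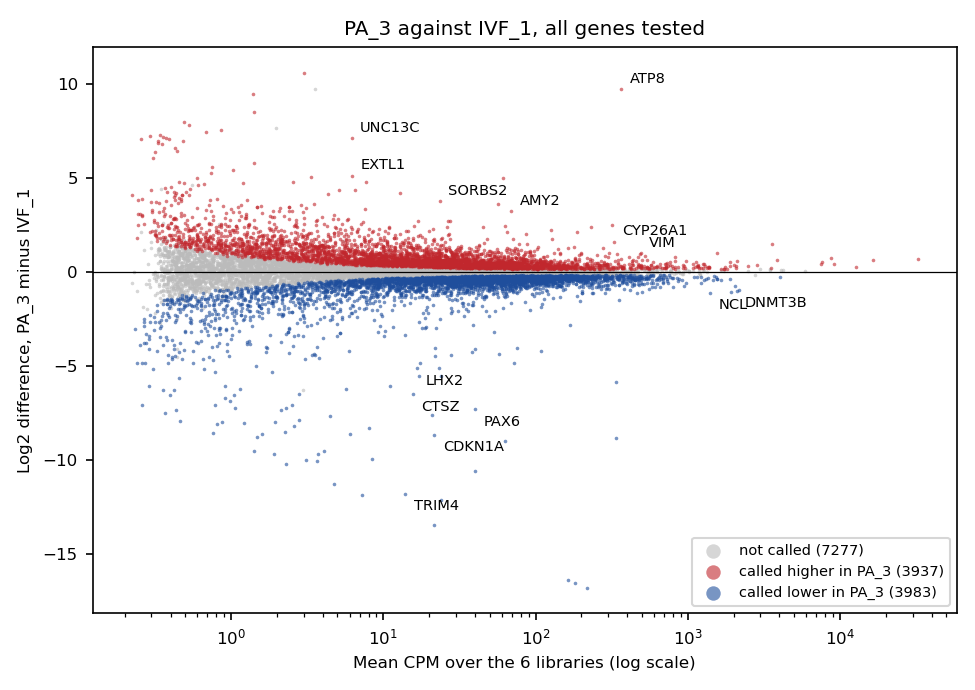
Log2 difference between PA_3 and IVF_1 (vertical axis) against mean CPM over the 6 libraries (horizontal axis, log scale) for the 15197 genes tested, with called genes in colour and 14 genes named. Called genes lie on both sides of 0 at every level. The fitted value of a gene with 0 counts in a line, as for TRIM4 and the imprinted genes at the bottom, depends on the small prior count that the fit adds.

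The direction of the change differed with the abundance of the transcript. Among genes with a mean of 3 to 10 CPM over the 6 libraries, 32.2% were called higher in PA_3 and 20.6% lower. Among genes at 100 to 300 CPM the order was the other way, with 20.8% higher and 37.8% lower. The 84 genes above 1000 CPM again leaned upwards, with 51.2% higher and 23.8% lower, and this class holds the ribosomal protein and mitochondrial genes described further on. Of 977 long noncoding RNA genes tested, 261 were called higher and 151 lower, with a median log2 difference of 0.23. The share called higher, 26.7%, was near the 25.9% over all genes tested, and the share called lower, 15.5%, was below 26.2%. Their median was 0.236 in PA_1 against IVF_1 and 0.009 in PA_3 against PA_1, so this shift did not set PA_3 apart from PA_1. Protein-coding genes had 3640 higher and 3794 lower, with a median near 0 (-0.003). The PA_3 libraries were the deeper ones, and the part of depth in the lean of low-abundance genes was not tested.

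No autosome stood out. The median log2 difference of the 18 autosomes lay between -0.028 and 0.066. On the X chromosome, 191 of 608 genes tested were called higher in PA_3 (31.4%) and 111 lower (18.3%), with a median of 0.12. The share of autosomal genes called higher ranged from 21.6% to 28.6% by chromosome, below that of the X, and the share called lower from 23.8% to 30.5%, above that of the X. The same median for X genes was 0.08 in PA_1 against IVF_1 and 0.04 in PA_3 against PA_1. The 4 Y-linked genes of the list that the table holds (SRY, KDM5D, EIF1AY and AMELY) had 0 counts in every library, IVF_1 included. The list names 18 genes, and others of it, DDX3Y and EIF2S3Y among them, were not matched. Genes placed on chromosome Y together had from 3866 counts in IVF_1 replicate 2 to 7155 in PA_3 replicate 2. These counts are not scaled for depth, and the totals of those libraries were 15248306 and 26803977 counts. The origin of those reads was not tested.

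The genes that fell furthest in PA_3 were close to silent in it. TRIM4, a ubiquitin ligase of the TRIM family (chromosome 3, 7815718 to 7837546 on Sscrofa11.1), had 0 counts in both PA_3 libraries and 20.2 and 20.5 CPM in IVF_1 and 20.6 and 22.3 CPM in PA_1. Taking 3 counts over the line as the limit that 0 counts allow, TRIM4 was at least 340-fold lower in PA_3. SLC1A6, a glutamate transporter of neurons (chromosome 2, 62601758 to 62623371), also had 0 counts in PA_3, against 6.22 and 5.96 CPM in IVF_1, which puts it at least 101-fold lower. PAX6, the transcription factor that starts eye and forebrain development (chromosome 2, 28971567 to 29001200), stood at 0.21 and 0.381 CPM in PA_3 and 46.4 and 48.3 CPM in IVF_1 (log2 difference -7.28 ± 0.17 (SE), adjusted p = 2.42e-15). Both PA_3 libraries lay below every IVF_1 and PA_1 library for these 3 genes, and the PA_1 mean of PAX6 was 72.2 ± 0.523 CPM (SD, n = 2, as for the other means with ±).

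Other genes near silence in PA_3 come from many pathways. INPP5D, an inositol phosphatase known from blood cells, stood at 0.21 and 0.19 CPM in PA_3 and 40.9 and 39.8 CPM in IVF_1 (log2 difference -7.62 ± 0.23 (SE), adjusted p = 1.02e-13). CTSZ, a lysosomal protease, stood at 0.168 and 0.457 CPM in PA_3 and 30.3 and 27.9 CPM in IVF_1 (log2 difference -6.49 ± 0.23 (SE), adjusted p = 6.07e-13). MMRN1, a secreted protein of platelets and endothelium, stood at 0.714 and 0.571 CPM in PA_3 and 17.6 and 19.2 CPM in IVF_1 (log2 difference -4.83 ± 0.18 (SE), adjusted p = 1.85e-12). PA_1 kept all 3, with 21.96 ± 4.29 CPM of INPP5D, 17.4 ± 1.97 CPM of CTSZ and 33.2 ± 1.77 CPM of MMRN1. FMN2, an actin nucleator of the egg, BBS10, a chaperonin-like protein of the cilium, and EXO5, an exonuclease of DNA repair, each had 1 count in the PA_3 libraries together. Those counts put FMN2 at 0.247% (95% counting interval 0.00624% to 1.39%) of the IVF_1 level, BBS10 at 0.385% (95% counting interval 0.00969% to 2.18%) and EXO5 at 0.269% (95% counting interval 0.00679% to 1.52%). In PA_1, FMN2 (16.1 ± 1.32 CPM) and BBS10 (8.27 ± 1.81 CPM) were present, and EXO5 stood at 0.377 ± 0.00621 CPM against 7.41 ± 0.205 CPM in IVF_1. The eye-field factors LHX2 (0.629 against 21.96 CPM, log2 difference -5.09) and SIX6 (0.217 against 5.25 CPM, log2 difference -4.54) and the transcription factor TP73 (0.402 against 8.56 CPM, log2 difference -4.40) complete the genes with the largest falls, beside CDKN1A and other genes described further on.

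The largest rises were of genes with low levels in IVF_1. UNC13C, a priming factor for synaptic vesicles (chromosome 1, 117166283 to 117764668), stood at 18.3 and 18.6 CPM in PA_3 and 0.121 and 0.131 CPM in IVF_1 (log2 difference 7.13 ± 0.30 (SE), adjusted p = 6.35e-12). EXTL1, a glycosyltransferase of heparan sulphate synthesis, stood at 13.9 and 14.9 CPM in PA_3 and 0.363 and 0.458 CPM in IVF_1 (log2 difference 5.12 ± 0.23 (SE), adjusted p = 2.32e-11). SORBS2, an adaptor of the actin cytoskeleton, stood at 62.2 and 57.9 CPM in PA_3 and 3.63 and 5.3 CPM in IVF_1 (log2 difference 3.76 ± 0.14 (SE), adjusted p = 1.4e-12). AMY2, an amylase that digests starch, reached the highest level of these, with 179 and 181 CPM in PA_3 and 17.2 and 21.5 CPM in IVF_1 (log2 difference 3.22 ± 0.11 (SE), adjusted p = 2.59e-13), though close amylase copies could share its reads. For these 4 genes every PA_3 library was above every IVF_1 and PA_1 library, and the differences from PA_1 were called as well (log2 differences 8.60, 1.88, 3.28 and 4.37). The other 10 genes with the largest rises outside the mitochondrial genome had log2 differences from 2.84 for C1orf94 to 4.19 for UMODL1. They include SVOP, a synaptic vesicle protein (9.65 against 0.529 CPM, log2 difference 4.16), TMPRSS6, a membrane protease of iron control (8.05 against 0.655 CPM, log2 difference 3.60), and FOXN4, a forkhead factor of the neural retina (8.72 against 1.14 CPM, log2 difference 2.94). KCNC2, a potassium channel (9.41 against 1.13 CPM, log2 difference 3.05), ADGRG5, an adhesion receptor (5.2 against 0.66 CPM, log2 difference 2.97), EML6 (5.6 against 0.594 CPM, log2 difference 3.22), TMEM82 (5.63 against 0.536 CPM, log2 difference 3.38) and EFCC1 (5.07 against 0.697 CPM, log2 difference 2.86) are the others. For EFCC1 and TMEM82, the PA_1 level lay nearer to PA_3, with log2 differences between PA_3 and PA_1 of 0.58 and 0.81.

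**Figure D2:**
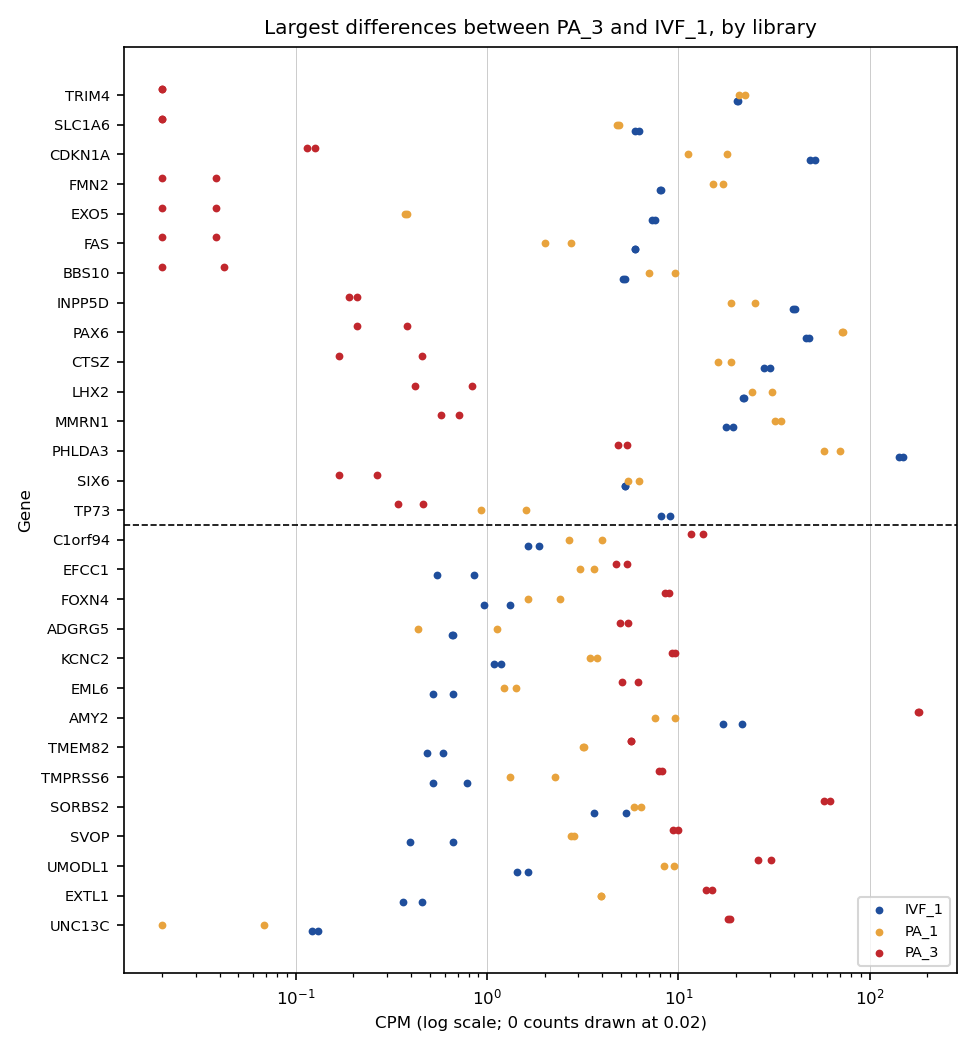
CPM (log scale, with 0 counts drawn at 0.02) in each of the 6 libraries for the 29 genes named for the largest differences between PA_3 and IVF_1, ATP8 left out, 1 point per library. Above the dashed line (15 genes lower in PA_3) both PA_3 points lie to the left of both IVF_1 points, and below it (14 genes higher in PA_3) to the right, as the rule for naming these genes requires.

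Some genes had 0 counts in both IVF_1 libraries and were counted in PA_3. Among those with a symbol, LRRC2 was the highest one counted in both PA_3 libraries, with 1.89 and 2.36 CPM in PA_3 and 0 and 0 CPM in IVF_1, and was at least 22-fold lower in IVF_1. PA_1 held LRRC2 at a level close to PA_3 (2.15 ± 0.18 CPM). An unnamed long noncoding RNA gene on an unplaced scaffold rose furthest, with 8.98 and 8.95 CPM in PA_3 and 0 and 0 CPM in IVF_1, while PA_1 had 0.0781 ± 0.0334 CPM.

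The machinery that makes ribosomes was lower in PA_3 across nearly all of its genes. Ribosome biogenesis factors build the ribosomal subunits in the nucleolus, and of 45 such factors tested, 1 was called higher in PA_3 and 38 lower (median log2 difference -0.66), against 0.004 over all genes tested. NCL, nucleolin, the abundant nucleolar protein that binds ribosomal RNA precursors, stood at 939 and 866 CPM in PA_3 and 1943 and 1922 CPM in IVF_1 (log2 difference -1.10 ± 0.07 (SE), adjusted p = 1.98e-09). RRP12, which brings ribosomal subunits out of the nucleus, stood at 37.1 and 37.5 CPM in PA_3 and 92.9 and 88.6 CPM in IVF_1 (log2 difference -1.28 ± 0.08 (SE), adjusted p = 8.76e-10). UTP4, a part of the processome of the small subunit, stood at 34.6 and 35.6 CPM in PA_3 and 80.9 and 78.2 CPM in IVF_1 (log2 difference -1.18 ± 0.09 (SE), adjusted p = 2.55e-08). DKC1, dyskerin, which modifies ribosomal RNA and binds telomerase RNA, stood at 67.7 and 70.9 CPM in PA_3 and 154 and 149.5 CPM in IVF_1 (log2 difference -1.13 ± 0.07 (SE), adjusted p = 1.32e-09). For all 4 genes both PA_3 libraries were below both IVF_1 libraries. The single factor called higher was POLR1D, a subunit shared by RNA polymerases I and III (122 against 106 CPM, log2 difference 0.20), and this call was lost without PA_3 replicate 1, PA_3 replicate 2 or IVF_1 replicate 2. PA_1 means of these genes lay between those of the other lines, with 57.9 ± 0.828 CPM of RRP12 and 82.4 ± 1.1 CPM of DKC1, and 4 members were called higher and 22 lower in PA_3 against PA_1. The counted 18S ribosomal RNA, RN18S, stood at 835 and 1092 CPM in PA_3 and 1765 and 2317 CPM in IVF_1. Ribosomal RNA in these libraries is what remained after poly(A) selection, and the call (log2 difference -1.08, adjusted p = 0.00259) was lost when only the libraries of the 2 lines were fitted (adjusted p = 0.07).

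The ribosomal proteins themselves moved the other way. For cytosolic ribosomal proteins, of 75 genes tested, 47 were called higher in PA_3 and 3 lower (median log2 difference 0.20). The number called higher was 26 without PA_3 replicate 2 and 17 without IVF_1 replicate 2. The changes were small. RPS15A stood at 1254 and 1149 CPM in PA_3 and 811 and 798 CPM in IVF_1 (log2 difference 0.58 ± 0.07 (SE), adjusted p = 2.93e-06). RPLP1 stood at 1487 and 1543 CPM in PA_3 and 1159.6 and 1055 CPM in IVF_1 (log2 difference 0.45 ± 0.07 (SE), adjusted p = 5.1e-05). RPS15A and RPLP1 were also called higher than in PA_1 (adjusted p = 0.00038 and 0.000196). The genes called lower were the ribosomal protein relatives RPS27L (28.01 against 67.3 CPM, log2 difference -1.27), RPL7L1 (67.6 against 110.2 CPM, log2 difference -0.70) and RPL26L1 (38.3 against 45.3 CPM, log2 difference -0.24), the last of which was not called by DESeq2 (adjusted p = 0.0687; 0.0687 to 0.271 over the alternatives that lost it). Ribosomal protein genes have many processed copies in mammalian genomes, and how the authors' counting divided reads among such copies is not given in the sources used here. In mitochondrial ribosomes the direction was downward, since of 76 genes tested, 4 were called higher in PA_3 and 35 lower (median log2 difference -0.21). Genes called higher numbered 7 with only the libraries of the 2 lines. The count of genes called lower moved to 23 without PA_3 replicate 1 or IVF_1 replicate 2 and 22 without PA_3 replicate 2. MRPS34 (31.7 against 51.4 CPM, log2 difference -0.70) and MRPL15 (30.3 against 47.6 CPM, log2 difference -0.65) fell, and MRPL10 (40.5 against 20.9 CPM, log2 difference 0.96) rose. The fall of the mitochondrial ribosomal proteins was not particular to PA_3. In PA_1 against IVF_1, 2 of them were called higher and 30 lower (median log2 difference -0.22). In PA_3 against PA_1, 12 were called higher and 6 lower.

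In 5 further lists of protein synthesis and protein quality control, more genes were called lower than higher. By list, 2.17% to 23.9% of genes were called higher and 40.5% to 63.0% lower, against 25.9% and 26.2% over all genes tested. Genes at 100 to 300 CPM leaned downward as a whole, with 20.8% higher and 37.8% lower. The part of that lean in these lists was not tested. Of the aminoacyl-tRNA synthetases, which load tRNAs with amino acids, 37 genes were tested, of which 3 were called higher in PA_3 and 15 lower (median log2 difference -0.12). Those called higher numbered 5 with only the libraries of the 2 lines and 1 without IVF_1 replicate 1. HARS1 (39.995 against 72.7 CPM, log2 difference -0.86) and WARS1 (53.9 against 93.7 CPM, log2 difference -0.80) fell, and GARS1 rose (314 against 204 CPM, log2 difference 0.62). For translation factors, of 67 genes tested, 16 were called higher in PA_3 and 29 lower (median log2 difference -0.05). Members called higher numbered 10 without PA_3 replicate 2 and 9 without IVF_1 replicate 2. Their summed level was 34740 and 35230 CPM in the PA_3 libraries and 34750 and 33370 CPM in IVF_1, and the lines overlapped. EIF4G1, the scaffold of the complex that binds the mRNA cap, stood at 392 ± 8.16 CPM in PA_3 and 734 ± 10.2 CPM in IVF_1 (log2 difference -0.90 ± 0.06 (SE), adjusted p = 4.25e-09). For the proteasome, which degrades tagged proteins, of 46 genes tested, 1 was called higher in PA_3 and 29 lower (median log2 difference -0.26). The tally called higher was 0 without PA_3 replicate 1, PA_3 replicate 2, IVF_1 replicate 1 or IVF_1 replicate 2 or with DESeq2. PSMG2, an assembly chaperone of the proteasome (11.8 against 23.2 CPM, log2 difference -0.98), and PSMC1, an ATPase of its cap (127 against 202 CPM, log2 difference -0.67), fell. Among chaperones of the endoplasmic reticulum, of 29 genes tested, 3 were called higher in PA_3 and 13 lower (median log2 difference -0.21). HSPA5, the main one, stood at 269 ± 14.997 CPM in PA_3 and 496 ± 5.87 CPM in IVF_1 (log2 difference -0.88 ± 0.06 (SE), adjusted p = 9.21e-09). Among heat shock proteins and co-chaperones of the cytosol and mitochondria, of 32 genes tested, 7 were called higher in PA_3 and 16 lower (median log2 difference -0.29). HSPA8 (1588 against 2661 CPM, log2 difference -0.74) and the mitochondrial chaperonin HSPD1 (452 against 788 CPM, log2 difference -0.80) fell. The small heat shock protein HSPB1 (127 against 66.4 CPM, log2 difference 0.94) and HSPA2 (22.5 against 7.49 CPM, log2 difference 1.59) rose. In PA_1 against IVF_1, all 5 lists also had more genes called lower than higher. There, tRNA synthetases had 1 higher and 18 lower (median -0.19), translation factors 2 and 27 (-0.13) and the proteasome 0 and 19 (-0.18). Chaperones of the endoplasmic reticulum had 0 and 14 (-0.27) and heat shock proteins 3 and 15 (-0.16). In that order, PA_3 against PA_1 had 7 and 10, 19 and 13, 5 and 14, 5 and 8, and 9 and 7.

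**Figure D3:**
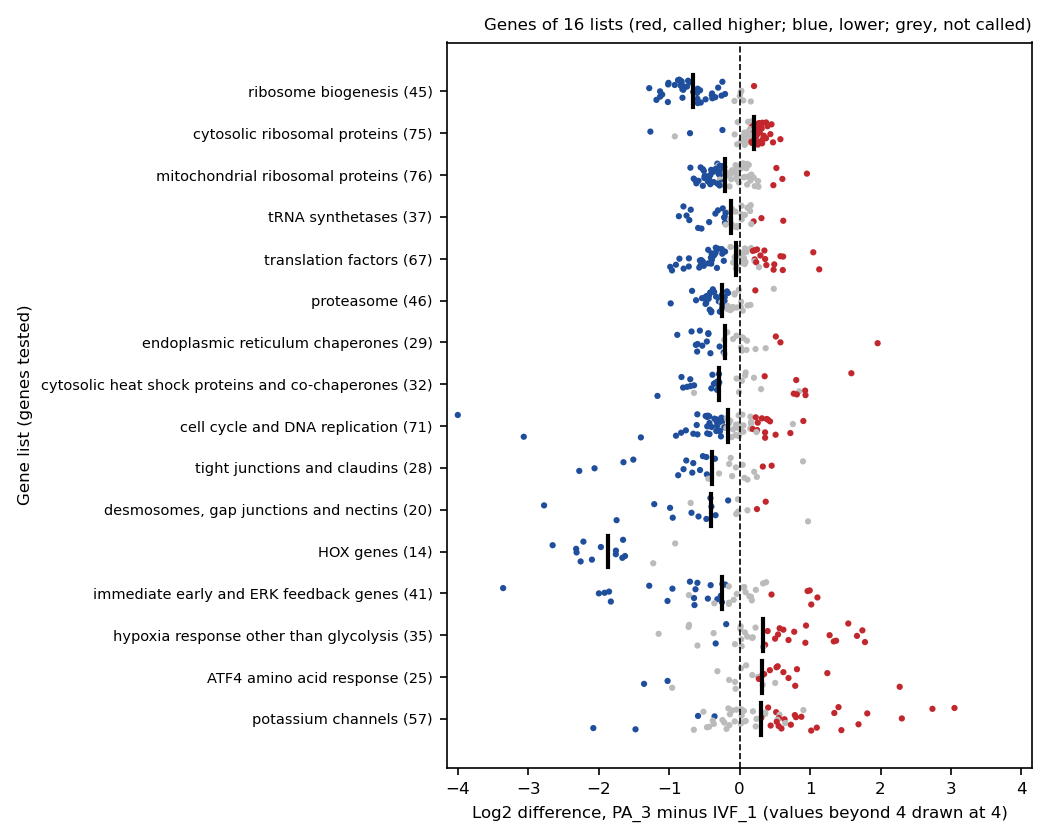
Log2 difference between PA_3 and IVF_1 for every tested gene (1 point each) of 16 gene lists, with the median of each list as a bar and the median of all genes as a dashed line. Ribosome biogenesis, proteasome and HOX points lie mostly to the left of 0 (lower in PA_3), and cytosolic ribosomal protein, hypoxia and potassium channel points mostly to the right.

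Some genes of cell cycle arrest and cell death were among the deepest falls. CDKN1A, the p21 inhibitor of the cell cycle (chromosome 7, 32359455 to 32363761), stood at 0.126 and 0.114 CPM in PA_3 and 51.7 and 48.6 CPM in IVF_1 (log2 difference -8.64 ± 0.32 (SE), adjusted p = 1.01e-10). FAS, a death receptor, had 1 count in the PA_3 libraries together, which is 0.336% (95% counting interval 0.00847% to 1.9%) of the IVF_1 level of 5.94 ± 0.0231 CPM. PHLDA3, which restrains AKT signalling and which the table annotates as a long noncoding RNA, stood at 4.83 and 5.41 CPM in PA_3 and 149 and 143 CPM in IVF_1 (log2 difference -4.83 ± 0.11 (SE), adjusted p = 2.42e-15). Both PA_3 libraries were below every other library for these 3 genes, and the PA_1 means, 14.6 ± 4.79 CPM of CDKN1A and 64.1 ± 8.75 CPM of PHLDA3, lay between. ZMAT3, an RNA-binding zinc finger protein (2.92 against 21.99 CPM, log2 difference -2.91), and AEN, a nuclease of apoptosis (15.3 against 78.5 CPM, log2 difference -2.36), also fell, both chosen after their values were seen. GADD45G, a stress sensor (35.9 against 10.9 CPM, log2 difference 1.71), and DDB2, which recognises ultraviolet damage in DNA (24.2 against 14.1 CPM, log2 difference 0.78), rose.

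Genes of the cell cycle were lower more often than higher. For cell cycle and DNA replication, of 71 genes tested, 13 were called higher in PA_3 and 32 lower (median log2 difference -0.16). The number called higher was 8 without PA_3 replicate 2 or IVF_1 replicate 1 and 7 without IVF_1 replicate 2. TYMS, which makes thymidylate for DNA, stood at 70.01 ± 2.72 CPM in PA_3 and 185 ± 9.81 CPM in IVF_1 (log2 difference -1.40 ± 0.07 (SE), adjusted p = 1.04e-10). CCND1, cyclin D1, stood at 37.2 ± 1.67 CPM in PA_3 and 69.7 ± 1.52 CPM in IVF_1 (log2 difference -0.90 ± 0.08 (SE), adjusted p = 1.26e-07). The checkpoint kinase CHEK2 (64.6 against 39.2 CPM, log2 difference 0.72) and cyclin CCNA1 (11.09 against 5.94 CPM, log2 difference 0.90) rose. MGMT, which removes alkyl groups from damaged guanine, fell the furthest among DNA repair genes (4.06 against 31.9 CPM, log2 difference -2.97). In that list, of 72 genes tested, 11 were called higher in PA_3 and 16 lower (median log2 difference -0.07). These shares, 15.3% and 22.2%, were below the 25.9% and 26.2% over all genes tested. APAF1, the core of the apoptosome, fell (29.2 against 54.9 CPM, log2 difference -0.91).

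Genes of epithelial colonies were lower in PA_3. CDH1, E-cadherin, stood at 328 and 318 CPM in PA_3 and 676 and 685 CPM in IVF_1 (log2 difference -1.08 ± 0.07 (SE), adjusted p = 1.38e-09). EPCAM, an epithelial adhesion molecule, stood at 137 and 124.1 CPM in PA_3 and 257 and 261 CPM in IVF_1 (log2 difference -0.99 ± 0.08 (SE), adjusted p = 1.95e-08). CLDN7, a claudin of tight junctions, stood at 18.9 and 19.95 CPM in PA_3 and 83.3 and 78.7 CPM in IVF_1 (log2 difference -2.06 ± 0.09 (SE), adjusted p = 6.82e-12). F11R, a junctional adhesion molecule, stood at 206 and 196 CPM in PA_3 and 572 and 573 CPM in IVF_1 (log2 difference -1.51 ± 0.07 (SE), adjusted p = 1.52e-11). For these 4 genes both PA_3 libraries were below both IVF_1 libraries. For tight junctions and claudins, of 28 genes tested, 2 were called higher in PA_3 and 14 lower (median log2 difference -0.40). Genes called higher numbered 1 without PA_3 replicate 2 or IVF_1 replicate 2. For desmosomes, gap junctions and nectins, of 20 genes tested, 2 were called higher in PA_3 and 12 lower (median log2 difference -0.41). The count of genes called higher moved to 1 without PA_3 replicate 1 or IVF_1 replicate 1. The channel proteins PANX1 (10.3 against 34.7 CPM, log2 difference -1.75) and GJA1 (22.7 against 52.5 CPM, log2 difference -1.21) fell. The regulators of this state fell too. ESRP1, the splicing factor that gives epithelial forms of many transcripts, stood at 48.6 and 49.01 CPM in PA_3 and 161 and 161 CPM in IVF_1 (log2 difference -1.72 ± 0.07 (SE), adjusted p = 7.98e-12). Its relative ESRP2 stood at 15.1 ± 1.3 CPM in PA_3 and 35.9 ± 1.66 CPM in IVF_1 (log2 difference -1.24 ± 0.11 (SE), adjusted p = 6.8e-08). GRHL2, a transcription factor of epithelial genes, stood at 16.3 ± 1.2 CPM in PA_3 and 44.05 ± 1.01 CPM in IVF_1 (log2 difference -1.44 ± 0.10 (SE), adjusted p = 6.81e-09). RAB25, an epithelial trafficking GTPase (8.21 against 32.8 CPM, log2 difference -2.00), the receptor F2RL1 (19.9 against 66.3 CPM, log2 difference -1.73) and the P-cadherin CDH3 (7.84 against 35.3 CPM, log2 difference -2.17) followed.

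Cytoskeletal and cadherin genes shifted in composition. The simple keratins KRT8 (510.3 against 894 CPM, log2 difference -0.81) and KRT18 (247 against 459 CPM, log2 difference -0.89) and KRT14 (48.9 against 148 CPM, log2 difference -1.60) fell. VIM, vimentin, the filament protein of mesenchymal cells, stood at 649 and 666 CPM in PA_3 and 328 and 325 CPM in IVF_1 (log2 difference 1.01 ± 0.09 (SE), adjusted p = 1.4e-07), with PA_1 at 491 ± 80.8 CPM. ZEB1, a repressor of CDH1, rose (8.34 against 3.9 CPM, log2 difference 1.10) and was chosen after its values were seen. Markers of fibroblasts did not follow VIM: of 13 genes tested, 2 were called higher in PA_3 and 8 lower (median log2 difference -0.72). Those called higher numbered 1 without PA_3 replicate 1, PA_3 replicate 2, IVF_1 replicate 1 or IVF_1 replicate 2. The list summed to 228 and 254 CPM in the PA_3 libraries and 359.5 and 354 CPM in IVF_1. TWIST2 (5.22 against 32.6 CPM, log2 difference -2.64) and PRRX1 (3.44 against 17.5 CPM, log2 difference -2.34), transcription factors of mesenchyme, fell. COL1A2 stood at 5.12 ± 0.297 CPM in PA_3 and 8.96 ± 2.41 CPM in IVF_1, with a call lost without IVF_1 replicate 2 (adjusted p = 0.0843). COL1A1 stood at 35.8 ± 2.53 CPM in PA_3 and 38.5 ± 1.66 CPM in IVF_1 (log2 difference -0.10, adjusted p = 0.392). In bulk libraries, fewer cells of a type and less RNA per cell cannot be told apart.

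**Figure D4:**
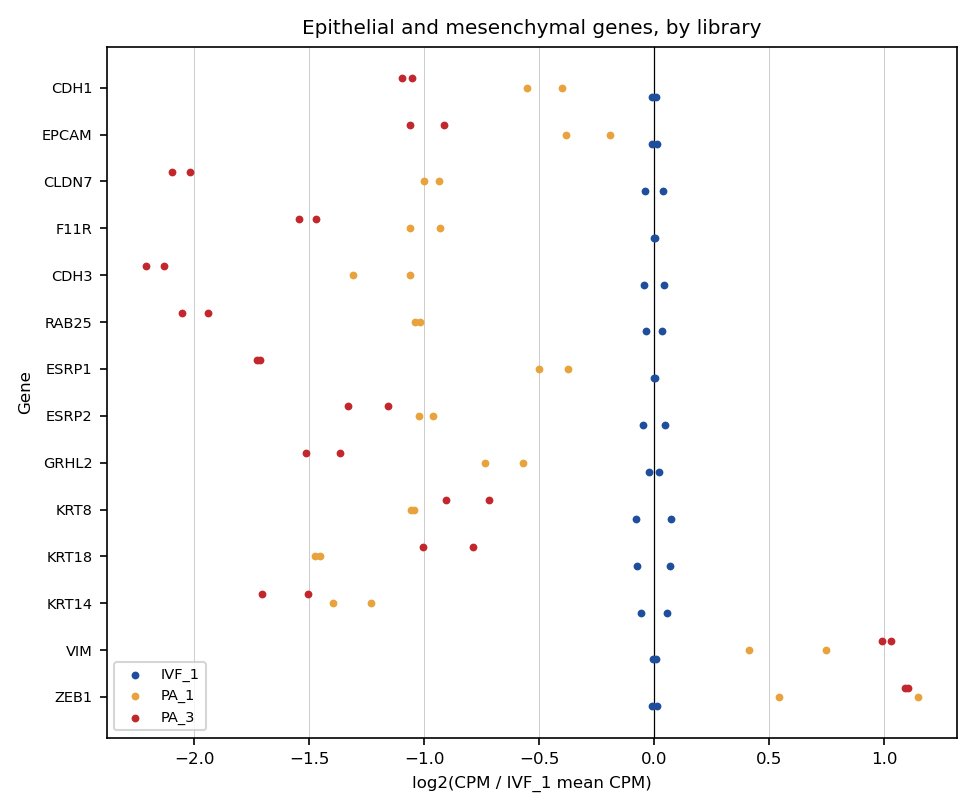
CPM in each library divided by the IVF_1 mean (log2 scale) for 14 genes of epithelial adhesion, its regulators, keratins and mesenchyme, 1 point per library. PA_3 points lie below 0 except for VIM and ZEB1, and the PA_1 mean lies between the means of the other lines for 12 of the 14 genes.

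Matrix and adhesion genes moved in both directions. Among laminins, integrins and matrix glycoproteins, of 62 genes tested, 26 were called higher in PA_3 and 13 lower (median log2 difference 0.21). TNXB, a tenascin of loose connective tissue (64.8 against 9.92 CPM, log2 difference 2.71), and MATN2, a matrilin (36.1 against 9.36 CPM, log2 difference 1.95), rose, and TNC, a tenascin of embryonic matrix (4.97 against 26.7 CPM, log2 difference -2.42), fell. The collagens COL14A1 (43.3 against 17.2 CPM, log2 difference 1.34) and COL7A1 (111 against 52.6 CPM, log2 difference 1.08) rose. Cadherins CDH6 (3.48 against 27.1 CPM, log2 difference -2.96) and CDH7 (1.08 against 9.56 CPM, log2 difference -3.14) fell and the protocadherin PCDH15 rose (18.4 against 4.45 CPM, log2 difference 2.05). Among cathepsins, serpins and cystatins, of 24 genes tested, 11 were called higher in PA_3 and 6 lower (median log2 difference 0.26). CTSV (141 against 55.1 CPM, log2 difference 1.35) and CST3 (51.3 against 19.9 CPM, log2 difference 1.37) rose while CTSC (31.2 against 76.8 CPM, log2 difference -1.30) fell.

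HOX genes were mostly lower, and other families of transcription factors moved in both directions. Of the HOX genes, which set position along the body axis, 14 genes were tested, of which 12 were called lower in PA_3 (median log2 difference -1.86). All HOX levels were low, and HOXC6 was the only HOX gene that reached 5 CPM in a line and was called (1.99 against 10.03 CPM, log2 difference -2.31). Among other homeobox factors, of 76 genes tested, 16 were called higher in PA_3 and 28 lower (median log2 difference -0.07). TGIF1, a corepressor of TGF-beta and retinoid signals, stood at 432 and 455 CPM in PA_3 and 179 and 182 CPM in IVF_1 (log2 difference 1.29 ± 0.06 (SE), adjusted p = 6.47e-11), and IRX2 (20.5 against 4.97 CPM, log2 difference 2.05) rose. For forkhead factors, of 27 genes tested, 7 were called higher in PA_3 and 8 lower (median log2 difference 0.04). These shares, 25.9% and 29.6%, were near the 25.9% and 26.2% over all genes tested. FOXB1, a factor of the caudal neural tube, stood at 220.0 and 233 CPM in PA_3 and 47.9 and 46.7 CPM in IVF_1 (log2 difference 2.26 ± 0.07 (SE), adjusted p = 1.78e-13). FOXA2, a factor of endoderm and floor plate, stood at 18.8 and 24.7 CPM in PA_3 and 4.53 and 5.1 CPM in IVF_1 (log2 difference 2.18 ± 0.16 (SE), adjusted p = 1.49e-08). FOXK1 (20.7 against 44.3 CPM, log2 difference -1.09) and FOXO1 (54.9 against 104 CPM, log2 difference -0.92) fell. PA_1 held FOXB1 at 103 ± 1.23 CPM and FOXA2 at 4.06 ± 0.495 CPM. EOMES, a T-box factor of early mesoderm and endoderm (1.24 against 11.7 CPM, log2 difference -3.22), NR2F2 (2.12 against 11.2 CPM, log2 difference -2.39) and SP6 (3.35 against 12.6 CPM, log2 difference -1.92) fell, and the orphan receptor ESRRB (7.84 against 2.1 CPM, log2 difference 1.90) rose.

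For markers of the pluripotent epiblast, of 10 genes tested, 2 were called higher in PA_3 and 6 lower (median log2 difference -0.49). That list summed to 4419 and 4484 CPM in the PA_3 libraries, 6463 and 6427 CPM in IVF_1 and 4150 and 4390 CPM in PA_1. SOX2 and SALL4 of the list were not matched. Of the single markers of cell identity, POU5F1 stood at 836 ± 62.9 CPM in PA_3 and 811 ± 39.1 CPM in IVF_1 (log2 difference 0.04, adjusted p = 0.631). OTX2 stood at 539.5 ± 0.681 CPM in PA_3 and 359.8 ± 1.002 CPM in IVF_1 (log2 difference 0.58, adjusted p = 6.2e-06) and LIN28A at 238 ± 2.85 CPM in PA_3 and 323 ± 14.2 CPM in IVF_1 (log2 difference -0.44, adjusted p = 2.96e-05). NANOG, a core pluripotency factor, was at 10.6 ± 0.989 CPM in PA_3 and 75.8 ± 1.06 CPM in IVF_1 (log2 difference -2.83, adjusted p = 6.32e-11). DNMT3B, a DNA methyltransferase of the epiblast, stood at 1582 ± 2.28 CPM in PA_3 and 3135 ± 1.61 CPM in IVF_1 (log2 difference -0.99, adjusted p = 2.86e-09), and PA_1 was at the PA_3 level (1577 ± 74.1 CPM). Beside these markers of the labelled cell type, the fixed markers GATA6, SOX17, CDX2, GATA3 and TBXT of other lineages were low in both lines. PAX6, given above, was low in PA_3 but not in IVF_1 or PA_1. FOXA2, LHX2 and EOMES, also given above, reached 5 CPM in PA_3 or IVF_1. GATA6 stood at 0.173 ± 0.186 CPM in PA_3 and 0.884 ± 0.139 CPM in IVF_1 and SOX17 at 1.14 ± 0.107 CPM in PA_3 and 1.66 ± 0.218 CPM in IVF_1. CDX2 had 0 counts in both lines, GATA3 stood at 1.17 ± 0.23 CPM in PA_3 and 1.03 ± 0.164 CPM in IVF_1 and TBXT at 0.019 ± 0.0269 CPM in PA_3 and 0.38 ± 0.11 CPM in IVF_1. Whole marker lists of other lineages, which hold genes shared with other cells, had higher sums than the low single markers. For hypoblast and endoderm, of 12 genes tested, 5 were called higher in PA_3 and 2 lower (median log2 difference -0.13), and the list summed to 1588 and 1618 CPM in the PA_3 libraries and 1382 CPM or less in IVF_1. SPARC, a secreted matrix protein of this list, made up a large share (484 against 416 CPM, log2 difference 0.22). The SPARC call was lost without PA_3 replicate 2, IVF_1 replicate 1 or IVF_1 replicate 2, with log2 differences of 0.21 to 0.23. Fewer hypoblast and endoderm genes were called higher without PA_3 replicate 2 or IVF_1 replicate 1. Fewer were called lower without PA_3 replicate 1 or IVF_1 replicate 2. For trophoblast, of 9 genes tested, 1 was called higher in PA_3 and 5 lower (median log2 difference -0.51). Members called lower numbered 3 without IVF_1 replicate 2. The trophoblast list summed to 752 and 861 CPM in the PA_3 libraries and 1493 and 1352 CPM in IVF_1, most of it from the keratins KRT8 and KRT18 given above. In PA_1 against IVF_1, 0 trophoblast genes were called higher and 5 lower (median log2 difference -1.05). In PA_3 against PA_1, 6 were called higher and 0 lower. For neuroectoderm, of 7 genes tested, 6 were called lower in PA_3 (median log2 difference -3.09). Those genes summed to 329.5 and 326 CPM in the PA_3 libraries and 426 and 432 CPM in IVF_1, most of it from NES, nestin (278 against 279.7 CPM, log2 difference -0.01, adjusted p = 0.917). SPARC and NES were chosen after their values were seen. KLF4, a factor of the naive state, stood at 10.2 ± 0.963 CPM in PA_3 and 8.12 ± 0.546 CPM in IVF_1 (log2 difference 0.33, adjusted p = 0.11).

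RNA of genes in signals that act on epiblast cells moved in both directions, and whether signalling itself differed was not tested. Of 19 FGF ligands and receptors tested, 5 were called higher in PA_3 and 8 lower (median log2 difference -0.03). WNT genes had 14 higher and 18 lower of 53 (median -0.06). TGF-beta, BMP and activin genes had 10 higher and 16 lower of 50 (median -0.03). Genes from LIF and cytokine receptors to JAK and STAT had 8 higher and 13 lower of 37 (median 0.03). Members named below from these lists fell, and do not stand for the lists. Among immediate early and ERK feedback genes, of 41 genes tested, 5 were called higher in PA_3 and 20 lower (median log2 difference -0.24). The tally called lower was 12 without PA_3 replicate 1 or with DESeq2, 13 without IVF_1 replicate 1 and 11 without IVF_1 replicate 2. The fall of this list was not particular to PA_3. In PA_1 against IVF_1, 0 of its genes were called higher and 19 lower (median log2 difference -0.40). In PA_3 against PA_1, 15 were called higher and 5 lower. ETV5, an ETS factor induced by FGF and ERK, stood at 35.05 and 39.6 CPM in PA_3 and 149.6 and 149 CPM in IVF_1 (log2 difference -2.00 ± 0.14 (SE), adjusted p = 2.81e-06). ETV4 stood at 14.01 ± 2.42 CPM in PA_3 and 53.02 ± 3.9 CPM in IVF_1 (log2 difference -1.92 ± 0.12 (SE), adjusted p = 2.49e-09). The ligand FGF2 fell (17.2 against 35.1 CPM, log2 difference -1.03). Among growth factor receptor tyrosine kinases and their ligands, of 38 genes tested, 8 were called higher in PA_3 and 18 lower (median log2 difference -0.42). The number called higher was 4 without PA_3 replicate 1 or IVF_1 replicate 2 and 5 with DESeq2. EGFR (37.98 against 92.4 CPM, log2 difference -1.28), NRG1 (4.88 against 14.7 CPM, log2 difference -1.59) and KITLG (5.27 against 17.6 CPM, log2 difference -1.74) fell and PDGFD rose (117 against 26.9 CPM, log2 difference 2.12). NODAL (1.43 against 8.03 CPM, log2 difference -2.48) and its antagonist LEFTY2 (29.7 against 109 CPM, log2 difference -1.87) fell. WLS, which carries WNT ligands out of the cell, fell (1.55 against 8.96 CPM, log2 difference -2.51). CRABP1, which binds retinoic acid in the cytosol, fell (1.39 against 14.9 CPM, log2 difference -3.41). CYP26A1, which breaks retinoic acid down, rose from 173 and 174 CPM in IVF_1 to 541 and 523 CPM in PA_3 (log2 difference 1.61 ± 0.07 (SE), adjusted p = 4.74e-12). SOCS3 (8.55 against 19.8 CPM, log2 difference -1.21) and STAT3 (27.6 against 53.6 CPM, log2 difference -0.96) fell.

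Metabolic genes outside glycolysis moved in smaller groups. Among hypoxia-response genes that are not glycolytic, of 35 genes tested, 17 were called higher in PA_3 and 2 lower (median log2 difference 0.33). Genes called lower numbered 1 without the filter on low counts, PA_3 replicate 1 or PA_3 replicate 2 or with DESeq2 and 0 without IVF_1 replicate 1 or IVF_1 replicate 2. BNIP3, which starts the removal of mitochondria, stood at 105 and 137 CPM in PA_3 and 35.96 and 34.6 CPM in IVF_1 (log2 difference 1.78 ± 0.29 (SE), adjusted p = 0.00905). P4HA1 (36.3 against 11.4 CPM, log2 difference 1.67), NDRG1 (9.47 against 2.83 CPM, log2 difference 1.74) and VEGFA (21.7 against 7.45 CPM, log2 difference 1.54) rose. The hypoxia list also leaned upward in PA_1 against IVF_1, with 12 genes called higher and 1 lower (median log2 difference 0.26). In PA_3 against PA_1, 14 of its genes were called higher and 4 lower. In glycogen metabolism, PGM1, which links glycogen to glucose phosphate, stood at 99.8 ± 0.298 CPM in PA_3 and 43.6 ± 2.75 CPM in IVF_1 (log2 difference 1.20 ± 0.08 (SE), adjusted p = 3.18e-09). PYGL, liver glycogen phosphorylase, stood at 112 ± 0.624 CPM in PA_3 and 56.9 ± 4.44 CPM in IVF_1 (log2 difference 0.98 ± 0.08 (SE), adjusted p = 2.63e-08). Over the whole glycogen list, of 20 genes tested, 8 were called higher in PA_3 and 4 lower (median log2 difference 0.17). Among the serine, glycine and folate genes, of 26 genes tested, 9 were called higher in PA_3 and 9 lower (median log2 difference 0.02). The count of genes called higher moved to 5 without PA_3 replicate 2 and 4 without IVF_1 replicate 2. In that list PSAT1 (127 against 53.5 CPM, log2 difference 1.25), PSPH (32.8 against 18.8 CPM, log2 difference 0.81) and MTHFD2L (12.1 against 2.83 CPM, log2 difference 2.09) rose, and TYMS, given above, the folate carrier SLC19A1 (14.4 against 22.9 CPM, log2 difference -0.67) and GCAT (6.66 against 9.99 CPM, log2 difference -0.58) fell. SRM, spermidine synthase (18.995 against 48.6 CPM, log2 difference -1.36), MTAP (49.1 against 95.1 CPM, log2 difference -0.95) and MAT2A (473 against 735 CPM, log2 difference -0.64), genes of polyamine and methionine metabolism, fell. PDHA1, a subunit of pyruvate dehydrogenase, rose (607 against 387 CPM, log2 difference 0.65). In the tricarboxylic acid cycle, of 27 genes tested, 4 were called higher in PA_3 and 12 lower (median log2 difference -0.16). This fall was not particular to PA_3. In PA_1 against IVF_1, 0 genes of the cycle were called higher and 13 lower (median log2 difference -0.2). In PA_3 against PA_1, 6 were called higher and 1 lower. For cholesterol synthesis, of 24 genes tested, 7 were called higher in PA_3 and 6 lower (median log2 difference 0.01). Those shares were near the 25.9% and 26.2% over all genes tested. Those called lower numbered 2 without IVF_1 replicate 1. In the list of ATF4 targets, of 25 genes tested, 12 were called higher in PA_3 and 2 lower (median log2 difference 0.31). Members called lower numbered 4 with only the libraries of the 2 lines and 1 without IVF_1 replicate 1 or with DESeq2. NUPR1 (14.7 against 3.05 CPM, log2 difference 2.27) rose and SESN2 (25.6 against 52.03 CPM, log2 difference -1.02) fell. Among redox genes, GPX1, a glutathione peroxidase, rose (202 against 87.8 CPM, log2 difference 1.20) and HMOX1, haem oxygenase, fell (5.7 against 16.9 CPM, log2 difference -1.56).

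Channels, receptors and synaptic genes leaned upward at low levels. Of potassium channels, 57 genes were tested, of which 23 were called higher in PA_3 and 4 lower (median log2 difference 0.31). The tally called higher was 14 with DESeq2. Of sodium, calcium and chloride channels, 81 genes were tested, of which 31 were called higher in PA_3 and 9 lower (median log2 difference 0.24). Of receptors for glutamate, GABA, glycine and acetylcholine, 48 genes were tested, of which 19 were called higher in PA_3 and 8 lower (median log2 difference 0.28). The number called higher was 12 without PA_3 replicate 2 and 11 without IVF_1 replicate 1. Of synaptic and neuronal genes, 57 genes were tested, of which 24 were called higher in PA_3 and 8 lower (median log2 difference 0.13). Genes called lower numbered 5 without PA_3 replicate 1. The channels KCNN3 (19.98 against 5.68 CPM, log2 difference 1.81), KCNK10 (19.96 against 2.99 CPM, log2 difference 2.74) and CACNA1I (5.74 against 1.01 CPM, log2 difference 2.50) rose. The glutamate receptors GRM7 (24.8 against 5.46 CPM, log2 difference 2.18) and GRIK1 (9.5 against 2.18 CPM, log2 difference 2.13), and STMN2, a microtubule regulator of neurons (121 against 29.99 CPM, log2 difference 2.01), rose. KCNJ3 (13.3 against 56.2 CPM, log2 difference -2.08) and CHRM2, a muscarinic receptor (2.1 against 21.7 CPM, log2 difference -3.36), fell. By list, 38.3% to 42.1% of these genes were called higher and 7.02% to 16.7% lower, against 25.9% and 26.2% over all genes tested. Low-abundance genes leaned upward as a whole, as given above, and the part of that lean in these lists was not tested. PA_1 was on the PA_3 side for STMN2 (107 ± 3.69 CPM) and KCNK10 (28.004 ± 2.05 CPM). The rise of sodium, calcium and chloride channels was not particular to PA_3. In PA_1 against IVF_1 they had 27 higher and 11 lower (median 0.23), and in PA_3 against PA_1 19 and 16. In PA_1 against IVF_1, potassium channels had 9 and 6 (0.14), the receptors 10 and 4 (0.1) and synaptic genes 16 and 7 (0.07). In that order, PA_3 against PA_1 had 17 and 6, 14 and 7, and 19 and 7. Motor proteins also leaned upward, since of 67 genes tested, 28 were called higher in PA_3 and 10 lower (median log2 difference 0.14). The count of genes called higher moved to 14 without IVF_1 replicate 2. Those called lower numbered 5 without PA_3 replicate 1 or PA_3 replicate 2, 6 without IVF_1 replicate 1 or with DESeq2 and 4 without IVF_1 replicate 2.

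**Figure D5:**
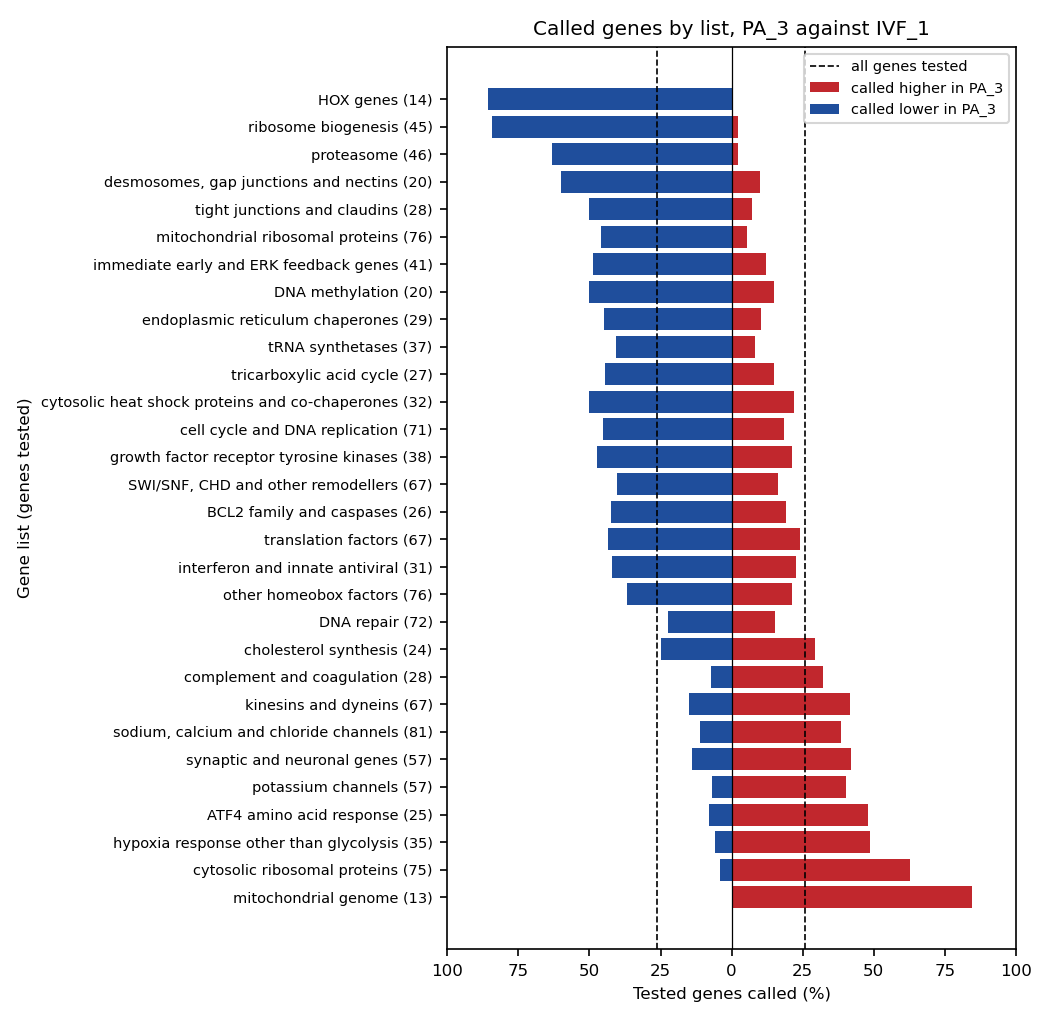
Percentage of tested genes called higher (right) and lower (left) in PA_3 against IVF_1 for 30 gene lists, with the share over all genes tested as dashed lines at 25.9% and 26.2%. Ribosome biogenesis and HOX genes reach beyond 80% on the lower side, and the mitochondrial genome, with 84.6%, leads the higher side, followed by cytosolic ribosomal proteins with 62.7%.

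Immune and defence genes moved in both directions. For complement and coagulation, of 28 genes tested, 9 were called higher in PA_3 and 2 lower (median log2 difference 0.26). Members called lower numbered 1 without PA_3 replicate 2 or IVF_1 replicate 1 or with DESeq2. C3, the central complement protein, stood at 15.8 ± 1.59 CPM in PA_3 and 3.57 ± 0.421 CPM in IVF_1 (log2 difference 2.14 ± 0.20 (SE), adjusted p = 3.89e-07). For interferon and antiviral genes, of 31 genes tested, 7 were called higher in PA_3 and 13 lower (median log2 difference -0.59). IRF1 (4.11 against 9.1 CPM, log2 difference -1.15) and IRF7 (1.94 against 5.24 CPM, log2 difference -1.43) fell, and IRF2 (5.59 against 1.32 CPM, log2 difference 2.08) and IFITM1 (25.4 against 7.2 CPM, log2 difference 1.82) rose. B2M, the light chain of class I MHC, fell (16.8 against 26.9 CPM, log2 difference -0.68), and ERAP1, which trims peptides for it, rose (5.26 against 0.919 CPM, log2 difference 2.52).

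At the upper end of expression, abundant transcripts changed by small ratios. Levels between genes are given in the authors' TPM, which are scaled by gene length. The largest losses in TPM were of PPIA, cyclophilin A, with 3064 ± 58.4 TPM in PA_3 and 4603 ± 56.3 TPM in IVF_1. They were followed by the actins ACTG1 (3187 ± 254 TPM in PA_3 and 4530.2 ± 336 TPM in IVF_1) and ACTB (1533 ± 129.7 TPM in PA_3 and 2398 ± 176 TPM in IVF_1) and by HSPA8 (1088 ± 44.4 TPM in PA_3 and 2199.6 ± 41.1 TPM in IVF_1). The call of ACTG1 was lost without PA_3 replicate 1 (adjusted p = 0.288) or IVF_1 replicate 1 (adjusted p = 0.298). Chromatin proteins were among them, with HMGB1 (801 ± 38.1 TPM in PA_3 and 1454 ± 3.16 TPM in IVF_1) and HMGN2 (974 ± 21.97 TPM in PA_3 and 1489 ± 35.4 TPM in IVF_1). Outside the mitochondrial genome, the largest gains were of RPLP1 (6998 ± 197 TPM in PA_3 and 6194 ± 344 TPM in IVF_1), and PAGE4 (1691 ± 81.4 TPM in PA_3 and 1091 ± 6.1 TPM in IVF_1). Next were the thymosins TMSB4X (2595 ± 58.5 TPM in PA_3 and 2059 ± 86.95 TPM in IVF_1) and TMSB10 (3359 ± 94.7 TPM in PA_3 and 2949 ± 195 TPM in IVF_1), and LGALS1, galectin 1 (625 ± 77.7 TPM in PA_3 and 363 ± 23.1 TPM in IVF_1). PAGE4, a gene of reproductive tissue on the X, was nearly absent from PA_1, with 389 and 363 CPM in PA_3 and 201 and 199.7 CPM in IVF_1 and 0.102 and 0.109 CPM in PA_1. TPM of nuclear genes are depressed in PA_3, because genes of the mitochondrial genome took 33.2 and 32.6% of its TPM and 18.4 and 20.1% of that of IVF_1. For its protein-coding genes, of 13 genes tested, 11 were called higher in PA_3 (median log2 difference 0.62). In that genome, ATP8 stood at 1155 and 1036 CPM in PA_3 and 1.21 and 1.37 CPM in IVF_1 (log2 difference 9.73 ± 0.12 (SE), adjusted p = 2.39e-19). Its span overlaps that of ATP6, and how reads of the shared stretch were divided between them was not tested.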

How the data were processed

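Per the submitters' processing notes, cutadapt 2.8 and STAR 2.7.1a were used with the build Sscrofa11.1. Not given in the sources used here are the counter, its annotation and its strand setting, so antisense and overlapping genes cannot be told apart. Libraries were stranded, oligo(dT)-selected and paired-end, per the labels' protocols. The authors deposited read counts per gene (not normalised) and TPM; counts were used for tests and TPM for levels between genes. The table's 54 columns of other samples were not used. Symbols came from the table for 16698 genes, from NCBI gene IDs for 3284 and from a gene ID table for 125, and 11801 had none. Genes were tested with edgeR 4.0.16 (glmQLFit robust, glmQLFTest, two-sided, R 4.3.3) on all 6 libraries, 1 coefficient per line, TMM scaling, filterByExpr by line (15197 genes kept), with Benjamini-Hochberg adjustment over those genes and a biological coefficient of variation of 6.11%. The comparison of line means rests on 2 libraries a line; an exact permutation test of a single value cannot go below p = 0.333. A line with 0 counts was given a limit of 3 counts over the line (0.0599 CPM in PA_3 and 0.0942 CPM in IVF_1), and 1 to 3 counts are given as a share with a 95% exact binomial interval; both cover counting error only. Levels are CPM as mean ± SD (n = 2). The fit was tested on simulated counts.

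The gene lists (103) and the named genes were chosen with earlier results of these data known. Named are the 15 genes per direction with the largest log2 difference, if called, named by a symbol, at 5 CPM or more in 1 of the lines and without overlap of libraries, outside the imprinted and glycolysis lists; the 15 per direction with the largest TPM difference; up to 3 per direction from each list with at least 5 CPM; up to 10 per direction absent from 1 line; and fixed identity markers. Other genes are marked as chosen after their values were seen. Alternatives were RLE size factors, DESeq2 1.42.0, no filter, only the libraries of the 2 lines, leaving out each library, a replicate block, and leaving out mitochondrial genes. Some fixed markers are not analysed here.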

Additional observations from a re-analysis of the deposited data

How the results depend on the processing

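The count of genes called in PA_3 against IVF_1 (7920) was 7904 with RLE size factors, 8208 without the filter, 9021 with only the libraries of the 2 lines, 7897 without mitochondrial genes, 6323 with DESeq2 and 5530 to 6084 when a library was left out. A line left with 1 library is assumed to vary like the other lines. In PA_3 against PA_1 the count (5595) ranged over 3406 to 6496 when a library was left out, the lowest without PA_3 replicate 2. Deviations from the line means of same-numbered libraries correlated at -0.08 between PA_3 and IVF_1, -0.136 between PA_3 and PA_1 and 0.0857 between PA_1 and IVF_1. With 2 libraries a line, these values cannot show whether same-numbered libraries were handled together. With the replicate number as a block the counts were 7798 and 5461, and BNIP3 was no longer called (adjusted p = 0.0575). Of 184 named genes called, 175 kept direction and call under every alternative run, and 9 lost the call under at least 1. Directions changed for genes not called: when a library was left out, the log2 difference ranged over -0.033 to 0.12 for POU5F1 and -0.037 to 0.36 for GATA3, and NES was at 0.0047 without the filter. Chosen after seeing the data, TPM over genes outside the mitochondrial genome kept the direction of all 30 genes named for their TPM difference. The cause of these shifts was not tested. With 2 libraries a line, small changes of genes under 1 CPM were not detectable at this depth.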

Other observations

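Other gene families were compared as well. Carbonic anhydrases and aquaporins had 8 genes called higher and 3 lower of 16 tested, with CA14, a membrane carbonic anhydrase, at 66.98 ± 1.82 CPM in PA_3 and 12.7 ± 0.217 CPM in IVF_1 (log2 difference 2.40 ± 0.10 (SE), adjusted p = 4.02e-12); PA_1 stood at 54.97 ± 3.6 CPM. Of the glycosyltransferases, 81 genes were tested, of which 25 were called higher in PA_3 and 15 lower (median log2 difference 0.16). ST6GALNAC5 (6.92 against 1.67 CPM, log2 difference 2.05) and MGAT5B (63.5 against 23.8 CPM, log2 difference 1.42) rose. The tally called lower among the glycosyltransferases was 8 without PA_3 replicate 2 and 9 without IVF_1 replicate 1. Of the solute carriers, 286 genes were tested, of which 78 were called higher in PA_3 and 88 lower (median log2 difference -0.04). Those shares, 27.3% and 30.8%, were near the 25.9% and 26.2% over all genes tested. The number called higher was 46 without IVF_1 replicate 1. SLC19A3, a thiamine transporter, fell (2.46 against 14.4 CPM, log2 difference -2.55), and SLC38A3, a glutamine transporter, rose (8.15 against 2.14 CPM, log2 difference 1.93). Among ephrins and their receptors, EFNB2 fell (9.65 against 40.3 CPM, log2 difference -2.07) and EPHA3 rose (7.48 against 1.35 CPM, log2 difference 2.47).

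Chromatin remodellers of the SWI/SNF, CHD and related families leaned downward, since of 67 genes tested, 11 were called higher in PA_3 and 27 lower (median log2 difference -0.14). Genes called higher numbered 7 without PA_3 replicate 2 or with DESeq2 and 6 without IVF_1 replicate 1 or IVF_1 replicate 2. The count of genes called lower moved to 14 without PA_3 replicate 2, 16 without IVF_1 replicate 1 and 13 without IVF_1 replicate 2. GATAD2A fell (248 against 391 CPM, log2 difference -0.66) and SMARCA2 rose (18.1 against 8.38 CPM, log2 difference 1.11). The shares of remodellers called, 16.4% higher and 40.3% lower, compare with 25.9% and 26.2% over all genes tested. Genes at 100 to 300 CPM had 20.8% higher and 37.8% lower, and the part of transcript level in the remodellers' lean was not tested. In PA_3 against PA_1, 7 remodellers were called higher and 26 lower. Among histone methyltransferases and demethylases the germ cell regulator PRDM14 rose (156 against 66.8 CPM, log2 difference 1.23). MEIOB, a meiotic recombination factor, rose (40.3 against 11.98 CPM, log2 difference 1.75) in a list of germ line RNA genes of which 17 genes were tested, with 9 called higher in PA_3 and 3 lower (median log2 difference 0.85). Those called lower numbered 1 without PA_3 replicate 2 or IVF_1 replicate 1. For germ cell markers, of 3 genes tested, 3 were called lower in PA_3 (median log2 difference -1.25). KIT, a receptor of germ cells (78.8 against 133 CPM, log2 difference -0.76), and DND1, an RNA-binding protein of germ cells (6.84 against 16.3 CPM, log2 difference -1.25), fell.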
